A study of Mus musculus with 9 samples.

Results

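The genes examined were the ErbB receptors Egfr, Erbb2, Erbb3 and Erbb4 and a set of genes whose products restrain them, namely Errfi1, Lrig1, Rnf41, Cbl, Cblb and Ptpn12. They were picked by gene symbol for what their products do, with earlier results of these data known, and made up 10 genes set against a table of 15552 protein-coding genes. Of the 10, 9 had a row in the table and Erbb4 was not analysed here. None of these 9 was too low to measure. The smallest count of any of them in any library was 686, for Egfr, the highest was 26620, for Errfi1, and all 9 passed the filter on low counts that left 11373 genes for testing.

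ErbB receptors are tyrosine kinases that work in pairs. Neuregulin-1 (NRG1) binds HER3, the product of Erbb3, whose own kinase is weak, and HER3 then signals through a partner, most often HER2, the product of Erbb2, which has no known ligand of its own. The products of the other genes in the set act on the receptor protein: some block the kinase, some attach ubiquitin and send the receptor to be degraded, and one removes phosphate, so that a change in their mRNA is only one of several ways in which receptor amounts can shift. In the prostate, HER2 and HER3 are studied for their part in tumor growth when androgen signaling is limited.

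To follow this receptor module after exposure to a HER3 ligand, MyC-CaP cells were profiled by paired-end mRNA sequencing. MyC-CaP is a single mouse prostate cancer line, grown out of a tumor of a mouse carrying a prostate-targeted MYC transgene. The 3 groups were cells at 0 h, at 12 h and at 24 h of recombinant NRG1 at 15 ng/mL. Each had 3 libraries from wells labelled as biological replicates. All groups shared a preceding starvation of 6 to 12 h without serum or calcium, and its length for each library was not given. Libraries kept for 12 or 24 h without NRG1 were not analysed here, so time in the starvation medium and time with NRG1 cannot be told apart, and as all libraries came from 1 line, the p-values measure the spread between wells of that line.

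The 9 libraries held 28467089 to 39239760 counts assigned to genes, which made 3 counts equal to 0.0764 to 0.106 CPM, the counts scaled to a common library size. The labelled cell type was epithelial-like prostate cancer. Of 8 luminal epithelial markers, 7 had a row: Foxa1 stood at a mean of 286 CPM, Hoxb13 at 92.2 CPM and Krt8 at 21.2 CPM, but the general epithelial markers Epcam and Cdh1 reached at most 3 and 4 counts in a library, and Krt18 at most 17. Markers of other cells were low, with summed levels of at most 18.0 CPM for fibroblast genes, nearly all of it Pdgfra, 1.11 CPM for leukocyte genes and 0.359 CPM for endothelial genes. The basal list was the exception that moved with time: its summed level, nearly all from Krt15, was 169 to 219 CPM at 0 h, 238 to 274 CPM at 12 h and 151 to 179 CPM at 24 h, while the basal markers Krt14 and Trp63 stayed at or under 12 counts per library. Its part in the results was not tested. The libraries of one time point differed by more than counting noise, with a chi-square per degree of freedom of 3.75 to 10.1, and the third library at 12 h stood farthest from its partners, at 9.92 and 10.1 against 4.26 for the other pair.

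To compare levels between genes, RPKM was used, the counts divided by library size and by the merged exon length of the gene, beginning with the 0 h libraries. Errfi1, which encodes the intracellular ErbB kinase inhibitor MIG6, was by far the most abundant of the 9 transcripts at 187 ± 12.1 RPKM (SD, n = 3), higher than 98.1% of 11369 ranked genes. Erbb2 followed at 30.8 ± 1.23 RPKM and Erbb3 stood at 13.8 ± 0.727 RPKM. Egfr closed the order at 2.69 ± 0.0929 RPKM, above only 28.1% of the ranked genes.

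Between these extremes, Ptpn12, a phosphatase gene, stood at 13.9 ± 1.24 RPKM and Cblb, encoding a ubiquitin ligase, at 12.6 ± 0.544 RPKM. Lrig1 stood at 9.73 ± 0.203 RPKM, Rnf41 at 8.68 ± 0.268 RPKM and Cbl at 7.08 ± 0.417 RPKM. Among neighbours in this order, only Ptpn12 and Erbb3 overlapped in their library values, at a ratio of 1.01. The other steps ran from 1.10-fold between Erbb3 and Cblb to 6.06-fold between Errfi1 and Erbb2. For the receptors, then, the order before NRG1 was Erbb2 over Erbb3 over Egfr, with an Erbb2 to Erbb3 ratio of 2.24 ± 0.0873 and an Erbb3 to Egfr ratio of 5.14 ± 0.438 on the RPKM scale. These ratios depend on the exon lengths used, 11326 bases for Egfr, 5210 for Erbb2 and 6016 for Erbb3, since the transcripts in use were not measured.

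**Figure D1:**
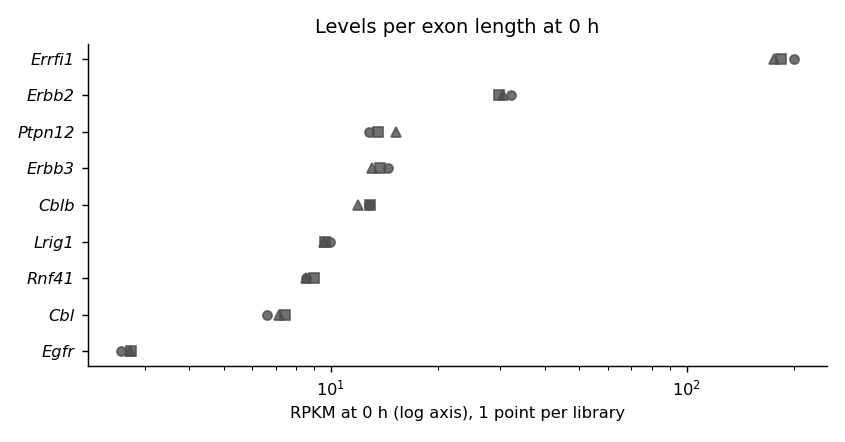
RPKM at 0 h on a log axis for the 9 measured genes, 1 point per library with a symbol for each replicate. Errfi1 lies at 176.5 to 200.2 RPKM, far to the right of every other gene, Egfr lies lowest, and only Ptpn12 and Erbb3 interleave with their neighbour in the order.

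Against this baseline, Egfr and Erbb2 fell after 12 h and were still below their 0 h level after 24 h, whereas Erbb3, the NRG1 receptor itself, did not pass the test in either comparison. Among the negative regulators, Cblb alone passed, with a small rise at 12 h. The share of counts from mitochondrial genes moved along the same course as Egfr and Erbb2, at 1.41% or more at 0 h, 1.12 to 1.18% at 12 h and 1.21 to 1.36% at 24 h with no overlap, and its part in these results was not tested. In all, 3 of 9 genes passed an adjusted p of 0.05 in edgeR's quasi-likelihood test at 12 h against 0 h, 1 higher and 2 lower, 2 of 9 passed at 24 h against 0 h, both lower, and 0 of 9 passed at 24 h against 12 h. Over all 11373 genes tested, the shares that passed were 25.5% at 12 h against 0 h, with 13.6% higher and 11.9% lower, 17.4% at 24 h against 0 h, with 9.67% higher and 7.76% lower, and 5.03% at 24 h against 12 h, with 1.97% higher and 3.06% lower. The share of the 9 genes that passed was thus close to the share of all genes at both times against 0 h, and the count by itself does not set the group apart.

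No gene of the 9 reached a 1.5-fold change together with the adjusted p in any comparison, where 2.29%, 2.27% and 0.29% of all genes did at 12 h against 0 h, 24 h against 0 h and 24 h against 12 h. The median size of the log2 fold change over the 9 genes was 0.12 at 12 h against 0 h, 0.054 at 24 h against 0 h and 0.11 at 24 h against 12 h, beside 0.11, 0.093 and 0.075 over all genes. An unadjusted p of at most 0.05 was reached by 4 of 9 genes at 12 h against 0 h, 4 of 9 at 24 h against 0 h and 5 of 9 at 24 h against 12 h, beside 4192, 3429 and 2290 of the 11373 genes tested. DESeq2 also passed 0 of 9 at 24 h against 12 h. In this bulk RNA, fewer cells expressing a gene and less RNA per cell cannot be told apart.

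**Figure D2:**
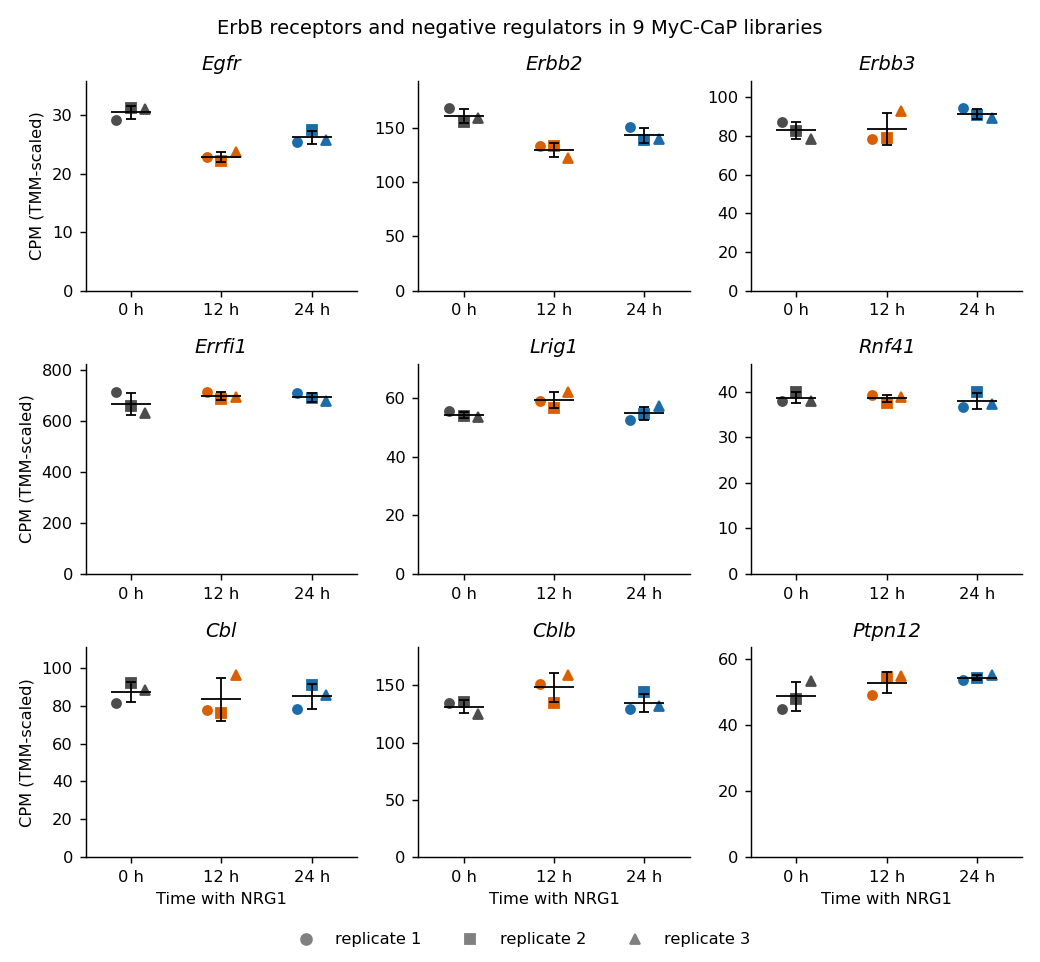
TMM-scaled CPM of the 9 genes in each of the 9 libraries, from 0 on the vertical axis, by hours with NRG1, where bars give the mean and SD of 3 libraries and symbols give the replicate. Egfr and Erbb2 lie lower at 12 h than at 0 h in every library. The third 12 h library is the highest of its group for Egfr, Erbb3, Lrig1, Cbl, Cblb and Ptpn12 and the lowest for Erbb2.

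Egfr, on chromosome 11 (GRCm38, chr11:16752203-16918158, plus strand, ENSMUSG00000020122.16), encodes the EGF receptor, which NRG1 does not bind but which can pair with HER2 and HER3. Its level was 29.2, 31.1 and 30.9 CPM at 0 h, 22.9, 22.1 and 23.8 CPM at 12 h and 25.4, 27.5 and 25.8 CPM at 24 h, in the order of the replicate numbers. All libraries at 12 h were below all those at 24 h, and these in turn were below all those at 0 h. The log2 fold change was -0.41 ± 0.057 (SE, adjusted p = 5.83e-05 by edgeR) at 12 h, a difference of -24.8%, and -0.22 at 24 h (adjusted p = 0.0131). Between 12 and 24 h it was 0.20, with a 95% interval of 0.075 to 0.32, and the adjusted p of 0.0595 missed the threshold. Without the first 0 h library or the third 12 h library it passed (adjusted p of 0.0473 and 0.0417 by edgeR).

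Erbb2 lies on the same chromosome (chr11:98412470-98437716, plus strand, ENSMUSG00000062312.5), 81494 kb away with 826 genes of the table in between, so that the pair are not neighbours. Its level was 168, 155 and 159 CPM at 0 h, 133, 133 and 122 CPM at 12 h and 151, 138 and 139 CPM at 24 h. The same order held as for Egfr, with 12 h lowest, 24 h between, 0 h highest and no overlap between any 2 time points. The log2 fold change was -0.31 ± 0.046 (SE, adjusted p = 0.000129 by edgeR) at 12 h, or -19.2%, and -0.17 at 24 h (adjusted p = 0.0174). From 12 to 24 h it was 0.14, with a 95% interval of 0.041 to 0.24 and an adjusted p of 0.0940. With no filter on low counts this difference passed (adjusted p = 0.0308 by edgeR). The falls of both genes at 12 h passed whichever single library was left out, with log2 fold changes of -0.44 to -0.39 for Egfr and -0.33 to -0.26 for Erbb2. The call at 24 h was lost for Egfr without the second 0 h library, the first 24 h library or the third (adjusted p of 0.0506, 0.0565 and 0.0571 by edgeR), and for Erbb2 without the first or the third 0 h library or the second or the third 24 h library (0.0757, 0.0516, 0.107 and 0.0971).

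The DNA just upstream of these 2 genes is shown because they were the receptors that fell. The first line is chr11:16751953-16752202 and the second is chr11:98412234-98412469, both on the plus strand of GRCm38.p6 as given by RefSeq, read 5′ to 3′. The Egfr window ends at the last base before the RefSeq transcript, and that of Erbb2 was ended before the gene start in GENCODE, which lies upstream of the RefSeq start at 98412484. Capitals mark a GC box, the letters GGGCGG on either strand.

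Egfr upstream: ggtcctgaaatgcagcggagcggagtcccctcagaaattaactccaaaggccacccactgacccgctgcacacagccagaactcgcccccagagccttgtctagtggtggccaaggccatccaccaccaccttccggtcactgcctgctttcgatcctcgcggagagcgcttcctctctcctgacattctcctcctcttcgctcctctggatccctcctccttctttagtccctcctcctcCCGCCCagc
Erbb2 upstream: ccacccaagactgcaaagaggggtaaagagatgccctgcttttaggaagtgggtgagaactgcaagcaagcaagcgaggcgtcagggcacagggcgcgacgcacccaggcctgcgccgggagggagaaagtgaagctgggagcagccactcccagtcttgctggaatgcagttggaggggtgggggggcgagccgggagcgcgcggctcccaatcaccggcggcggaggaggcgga

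The Egfr window held 1 GC box, on the minus strand and starting 9 bases before the transcript, and the Erbb2 window held none. Both windows were rich in G and C, at 60.8% with 11 CpG dinucleotides for Egfr and 65.7% with 16 for Erbb2, against medians of 52.4% and 6 over 32851 upstream windows of 250 bases. A GC box was found in 32.7% of those windows. Neither window held the E-box CACGTG, found in 6.02% of windows, the AP-1 motif TGANTCA, found in 6.75%, or the FOXO core GTAAACA, found in 3.17%, each searched on both strands. Of the 10 genes, 8 had a RefSeq window, Erbb3 and Ptpn12 being the others, and the windows of the other measured genes also held none of these last 3 motifs, while GC boxes were found for Lrig1, Cbl, Cblb and 1 of 2 starts of Errfi1 but not for Rnf41. The windows of Cblb and of the Errfi1 start with GC boxes lay inside the gene bounds used here. Each of these windows, and that of Rnf41, overlapped 1 annotated exon. All the motifs named are matches of letters only.

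Erbb3, on chromosome 10 (chr10:128567523-128589652, minus strand, ENSMUSG00000018166.8), encodes the receptor that binds NRG1. Its level was 87.3, 82.7 and 78.5 CPM at 0 h, 78.3, 78.9 and 92.9 CPM at 12 h and 94.2, 90.8 and 89.1 CPM at 24 h. At 12 h, 2 libraries lay at the bottom of the 0 h range and the third lay above it, so the mean of 83.4 ± 8.26 CPM (SD, n = 3) joined unlike values. All 24 h libraries lay above all 0 h libraries. At 12 h the log2 fold change was 0.0092, with a 95% interval of -0.11 to 0.13, so that a fall as large as that fitted for Egfr or Erbb2 lay outside it. At 24 h it was 0.14, with an interval of 0.018 to 0.27 and an adjusted p of 0.109. Erbb3 also passed at 24 h against 0 h with no filter on low counts (adjusted p = 0.0187 by edgeR) and when only those 2 time points were fitted (0.0237). Without the third 12 h library, it passed at 24 h against 0 h (log2 fold change 0.15, adjusted p = 0.0175 by edgeR) and at 24 h against 12 h (0.21, adjusted p = 0.0105).

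Because HER3 signals through its partners, the balance between receptor transcripts was also measured inside each library, where library size cancels. The ratio of Erbb2 to Erbb3 counts was 1.92, 1.88 and 2.02 at 0 h, 1.70, 1.69 and 1.32 at 12 h and 1.60, 1.52 and 1.57 at 24 h. Every library with NRG1 lay below every library at 0 h, and the lowest value belonged to the third 12 h library. On the log2 scale, the ratio was 0.96 ± 0.056 (SD, n = 3) at 0 h, 0.64 ± 0.21 at 12 h and 0.64 ± 0.036 at 24 h. An exact permutation test over the 3 time points gave p = 0.0429, and 0.0643 after Benjamini-Hochberg adjustment over the 3 pairs of receptors tested, where the smallest p the design allows is 0.0036. Without the third 12 h library the difference at 12 h was -0.19 in place of -0.31, and the adjusted p was 0.0107 in the exact permutation test.

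The Egfr to Erbb3 log2 count ratio was -1.44 ± 0.12 at 0 h, -1.86 ± 0.098 at 12 h and -1.80 ± 0.083 at 24 h. Again no library at 12 or 24 h overlapped those at 0 h (exact permutation p = 0.0214, adjusted p = 0.0643). The Egfr to Erbb2 log2 count ratio was -2.40 ± 0.11, -2.50 ± 0.12 and -2.44 ± 0.12, and the 3 time points overlapped (exact permutation p = 0.525). Both ratios to Erbb3 were thus lower in every library at 12 and 24 h than in any at 0 h, but neither passed the threshold after adjustment. The 2 ratios share the Erbb3 counts, so they are not separate observations. Among single genes, 38.4% did not overlap between 12 h and 0 h and 35.5% between 24 h and 0 h. The share among other gene pairs was not measured. Per exon length, Erbb2 exceeded Erbb3 by 2.24-fold at 0 h, 1.81-fold at 12 h and 1.81-fold at 24 h, so Erbb2 remained the more abundant transcript throughout.

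**Figure D3:**
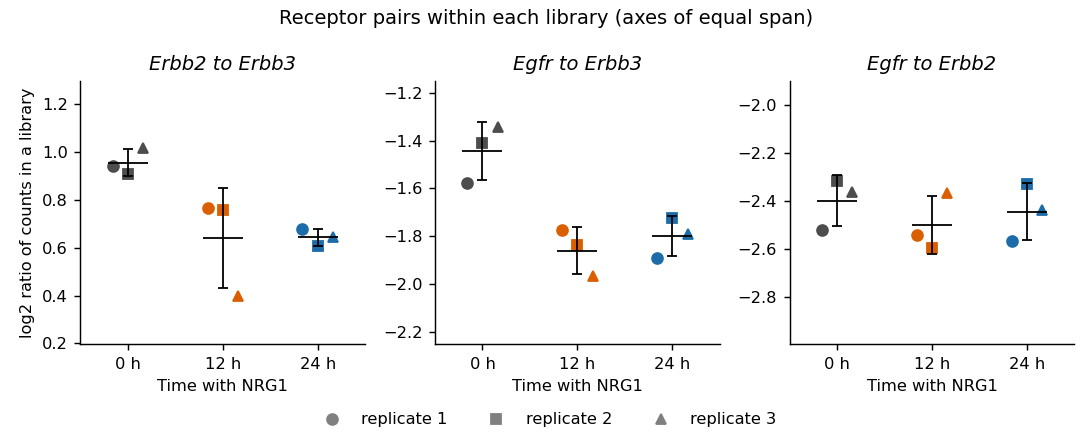
Log2 ratio of the counts of 2 receptors within each library, by hours with NRG1, with the mean and SD of 3 libraries as bars. For both ratios to Erbb3 all 12 h and 24 h points lie under all 0 h points, the third 12 h library being the lowest, whereas the Egfr to Erbb2 points overlap.

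Errfi1 (chr4:150853919-150868892, plus strand, ENSMUSG00000028967.10) encodes MIG6, a feedback inhibitor that binds the kinase domain of active receptors and is itself a known product of receptor signaling. Its level was 717, 659 and 632 CPM at 0 h, 717, 686 and 698 CPM at 12 h and 713, 693 and 678 CPM at 24 h. The first 0 h library was as high as any library with NRG1, and the groups overlapped. The log2 fold change was 0.065 at 12 h, with a 95% interval of -0.025 to 0.16 and an adjusted p of 0.293 by edgeR. Without the first 0 h library it was 0.12 and passed (adjusted p = 0.0291). Set against the receptors, Errfi1 exceeded Egfr 69.7 ± 6.93-fold at 0 h, 96.7 ± 3.37-fold at 12 h and 83.9 ± 4.58-fold at 24 h in RPKM, and Erbb2 6.06 ± 0.239-fold, 7.86 ± 0.410-fold and 7.08 ± 0.201-fold. Against Erbb3 the excess was 13.6 ± 0.213-fold, 14.2 ± 1.42-fold and 12.8 ± 0.0435-fold, lowest at 24 h. These ratios are given as a description, without a test.

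Lrig1 (chr6:94604529-94700158, minus strand, ENSMUSG00000030029.14) encodes a transmembrane protein that binds ErbB receptors and lowers their amount at the surface. Its level was 55.6, 53.9 and 53.5 CPM at 0 h, 59.0, 56.8 and 62.3 CPM at 12 h and 52.7, 54.6 and 57.2 CPM at 24 h. All 12 h libraries lay above all 0 h libraries, while those at 24 h overlapped both. The log2 fold change at 12 h was 0.13, with an interval of 0.028 to 0.23, and the adjusted p of 0.0570 fell just short. It passed without the second 12 h library (0.16, adjusted p = 0.0382 by edgeR). At 24 h against 0 h it was 0.015 (adjusted p = 0.871). Of its exonic bases, 2.58% lie under Slc25a26 on the opposite strand, and whether the counting used strand was not stated.

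Cblb (chr16:52031225-52208048, plus strand, ENSMUSG00000022637.11) and Cbl (chr9:44142976-44234049, minus strand, ENSMUSG00000034342.9) encode related ubiquitin ligases that bind phosphorylated receptors, EGFR above all. Cblb stood at 134, 135 and 125 CPM at 0 h, 151, 134 and 159 CPM at 12 h and 129, 144 and 132 CPM at 24 h. The second 12 h library lay within the 0 h range, and the other 12 h libraries above it. The 12 h rise of Cblb was 0.17 ± 0.056 in log2 (SE, adjusted p = 0.0331 by edgeR), or 12.7%, and the difference was 0.038 at 24 h (adjusted p = 0.712). From 12 to 24 h it was -0.13 (adjusted p = 0.188), and -0.20 without the second 12 h library, where it passed (adjusted p = 0.0429 by edgeR). The rise was lost in 5 of 9 fits that left out a library, namely without the first or the third library at 0 h, the first or the third at 12 h or the third at 24 h (log2 fold change 0.13 to 0.19, adjusted p of 0.0513, 0.115, 0.101, 0.0870 and 0.0512). In the omnibus test of the 3 time points at once, which 27.4% of all genes passed, Cblb did not pass (adjusted p = 0.0606), and of the 9 genes only Egfr (0.000167) and Erbb2 (0.000371) did.

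Cbl stood at 81.8, 91.9 and 88.6 CPM at 0 h, 77.6, 76.2 and 96.4 CPM at 12 h and 78.1, 91.2 and 85.9 CPM at 24 h. Its 12 h libraries lay on both sides of the 0 h range, with the third on top. At 12 h the difference was -0.070 in log2, with an interval of -0.23 to 0.091. Without the third 12 h library it was -0.18 and passed (adjusted p = 0.0296 by edgeR), the opposite direction to Cblb.

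Rnf41 (chr10:128411657-128441441, plus strand, ENSMUSG00000025373.14) encodes NRDP1, the ubiquitin ligase known for controlling the steady amount of HER3. On the chromosome it lies 126 kb from Erbb3 with 7 genes of the table between them. Its level was 37.9, 40.1 and 38.0 CPM at 0 h, 39.2, 37.6 and 38.8 CPM at 12 h and 36.6, 39.9 and 37.3 CPM at 24 h. The 3 groups overlapped throughout, and of the 9 genes Rnf41 had the highest adjusted p in the omnibus test (0.881). At 12 h the log2 fold change was -0.0058, with a 95% interval of -0.11 to 0.099, so that a fall as large as that of Egfr lay outside it.

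Ptpn12 (chr5:20986645-21055911, minus strand, ENSMUSG00000028771.13) encodes PTP-PEST, a tyrosine phosphatase that acts on ErbB receptors. Its level was 44.9, 47.8 and 53.4 CPM at 0 h, 49.1, 54.6 and 54.9 CPM at 12 h and 53.6, 54.3 and 55.2 CPM at 24 h. The third 0 h library lay above its partners and close to the 24 h libraries, which nevertheless all lay above the 0 h range. Its log2 fold change was 0.12 at 12 h (interval -0.011 to 0.24, adjusted p = 0.174) and 0.16 at 24 h (interval 0.032 to 0.28, adjusted p = 0.0802). Without the third 0 h library both passed, at 0.20 (adjusted p = 0.0228 by edgeR) and 0.24 (adjusted p = 0.0108), and with the replicate number as a block the 24 h difference passed (0.16, adjusted p = 0.0334). Without the third 12 h library the 24 h difference also passed (0.16, adjusted p = 0.0457).

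**Figure D4:**
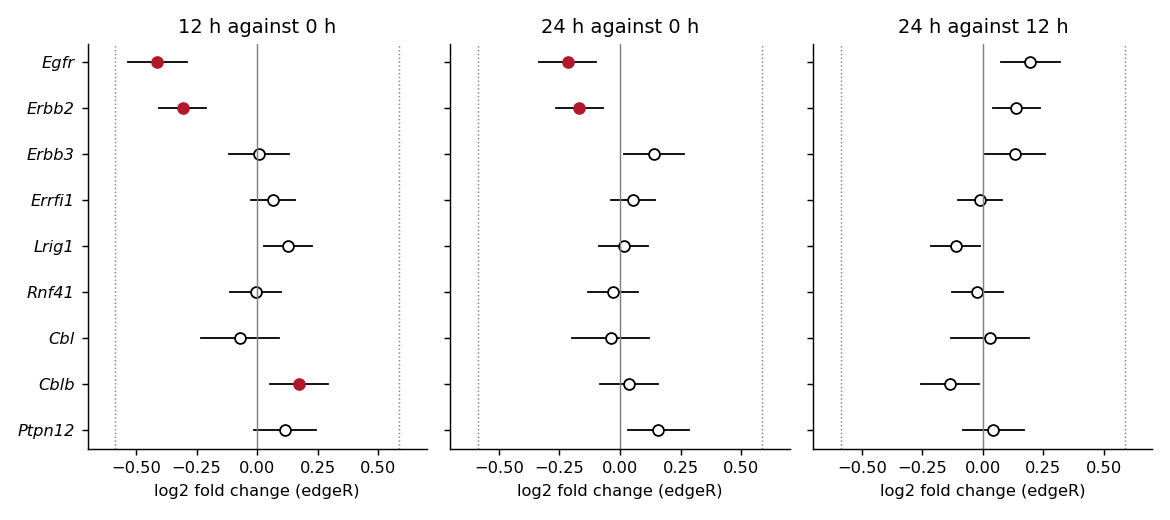
Log2 fold change with its 95% interval for the 9 genes in the 3 comparisons, filled where the adjusted p was at most 0.05 in edgeR, with dotted lines at a 1.5-fold change. Egfr and Erbb2 are filled to the left of 0 in both comparisons against 0 h, Cblb is filled to the right at 12 h, and no interval crosses a dotted line.

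Counted by separation of the library values, 3 of 9 genes did not overlap between 12 h and 0 h (Egfr, Erbb2 and Lrig1), beside 38.4% of all genes, and 4 of 9 did not overlap between 24 h and 0 h (Egfr, Erbb2, Erbb3 and Ptpn12), beside 35.5%. Between 24 h and 12 h, 2 of 9 did not overlap (Egfr and Erbb2), beside 25% of all genes. The 2 comparisons against 0 h share their 0 h libraries, and those of 12 h enter both the first and the third.

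The genes whose course over the 9 libraries was most like that of Egfr were Mob3b and Myo5c, out of 8404 genes with a mean of at least 10 CPM. Likeness was measured as the root mean square difference of centred log2 CPM, 0.044 for Mob3b and 0.052 for Myo5c, beside a spread of 0.17 for Egfr itself. Mob3b had log2 fold changes of -0.39 at 12 h and -0.15 at 24 h, and Myo5c of -0.42 and -0.29. For Erbb2, with a spread of 0.14, the nearest were Washc1 at 0.025 and Rilpl1 at 0.027. Washc1 had log2 fold changes of -0.30 and -0.19, and Rilpl1 of -0.31 and -0.16. These genes were picked for their likeness, so their changes are a description with no test.

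Other genes acting on the receptors were taken from 3 lists written from general knowledge, with earlier results of these data known for some genes. Other negative regulators of receptor signaling numbered 23, of which 18 were tested, Cblc and Ubash3b were too low and Lrig3, Spry1 and Spry2 were not analysed here. At 12 h against 0 h, 1 rose, 3 fell and 14 did not pass, with a median log2 fold change of -0.041 beside -0.0028 over all genes. Of all genes tested, 13.6% rose and 11.9% fell past the same threshold. Ptpn2, a phosphatase gene, rose by a log2 fold change of 0.15 (adjusted p = 0.0317), while Nedd4, encoding a ubiquitin ligase, and Ptprk, encoding a receptor phosphatase, fell, at -0.12 (adjusted p = 0.0144) and -0.14 (adjusted p = 0.0321 by edgeR). Leaving out 1 library lost the call of Ptpn2 in 3 of 9 fits (first or the third 0 h, first 12 h), that of Nedd4 in 2 (second 0 h, second 12 h) and that of Ptprk in 4 (first or second 0 h, first or second 12 h), with log2 fold changes of 0.14 to 0.17, -0.13 to -0.10 and -0.18 to -0.11 over the 9 fits. The Ptprk call was also lost when only the 0 h and 12 h libraries were fitted. At 24 h against 0 h, 1 rose, 0 fell and 17 did not pass, beside 9.67% of all genes higher and 7.76% lower. The one was Wwp1, another ubiquitin ligase gene, at 90.6 ± 4.37, 92.9 ± 1.91 and 103 ± 2.73 CPM (SD, n = 3) over the time points, with a log2 fold change of 0.19 at 24 h (adjusted p = 0.00434 by edgeR).

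The second list held 20 genes of endocytic sorting and receptor stability, all tested. At 12 h against 0 h 3 rose, 1 fell and 16 did not pass, and at 24 h 1 rose, 2 fell and 17 did not pass, with medians of -0.010 and -0.0049. Over all genes tested, 25.5% passed at 12 h and 17.4% at 24 h against 0 h. The gene that fell at 12 h was Erbin, whose product binds the HER2 tail and helps keep HER2 at the membrane. It stood at 449 ± 3.80 CPM at 0 h, 366 ± 13.6 CPM at 12 h and 389 ± 12.5 CPM at 24 h, with log2 fold changes of -0.30 (adjusted p = 2.36e-05 by edgeR) and -0.21 (adjusted p = 0.000846). Hsp90aa1, encoding a chaperone on which the HER2 protein depends, rose at 12 h by 0.24 (adjusted p = 7.45e-05), from 787 ± 23.2 to 929 ± 10.8 CPM, and stood at 837 ± 13.9 CPM at 24 h. Stam, a sorting gene, rose at 12 h by 0.21 (adjusted p = 0.00449). Rab11a, a gene of endosomal recycling, rose at both times, by 0.16 at 12 h (adjusted p = 0.0151) and 0.15 at 24 h (adjusted p = 0.0261), and Hsp90ab1, encoding another HSP90 chaperone, fell at 24 h, at -0.13 (adjusted p = 0.0202). The Rab11a call was lost at 12 h without the second 0 h library and at 24 h without the second 0 h or the first or the third 24 h library (log2 fold changes of 0.13 to 0.19 and 0.12 to 0.18 over the 9 fits), and that of Hsp90ab1 without any 1 of the 24 h libraries (-0.15 to -0.11).

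The third list held 30 genes of proximal signaling, all tested. At 12 h against 0 h 4 rose, 6 fell and 20 did not pass, and at 24 h 1 rose, 2 fell and 27 did not pass, with medians of -0.0076 and 0.018. The shares over all genes tested were again 25.5% and 17.4%. Gab2, a docking protein gene, fell at both times, by 0.25 on the log2 scale at 12 h and again at 24 h (adjusted p of 0.000470 and 0.000596 by edgeR). Pik3r1, encoding a PI3K regulatory subunit, fell at 12 h by 0.30 (adjusted p = 0.00182) and was at -0.18 at 24 h (adjusted p = 0.0518). Map2k1, encoding MEK1, rose at 12 h by 0.19 (adjusted p = 0.00105). Araf, encoding a RAF kinase, also fell at both times, by 0.16 at 12 h (adjusted p = 0.0140) and at 24 h (adjusted p = 0.0239). Its 12 h call was lost without the second 0 h or the third 12 h library (log2 fold changes of -0.21 to -0.11 over the 9 fits), and its 24 h call without the second 0 h library or any 1 of the 24 h libraries (-0.17 to -0.13).

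At 24 h against 12 h, 1 of 18 other negative regulators rose (Wwp1), 1 of 20 sorting and stability genes fell (Hsp90aa1) and 0 of 30 signaling genes passed, with medians of 0.023, -0.011 and 0.013. Over all genes tested, 5.03% passed there. In the 3 comparisons, the counts by themselves do not set the lists apart. As in the receptors and their regulators, no tested gene of the 3 lists passed the adjusted p together with a 1.5-fold change in any comparison. The medians of all the groups lay within 0.05 of 0 on the log2 scale.

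**Figure D5:**
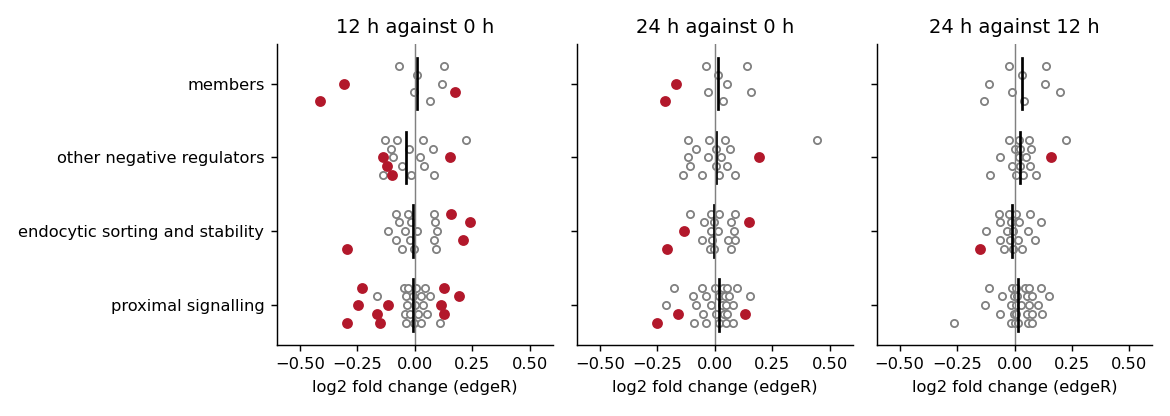
Log2 fold changes of the receptors and regulators (members) and of the 3 lists in each comparison, with 1 point per tested gene, filled where the adjusted p was at most 0.05 in edgeR, and a bar at the median. All medians lie close to 0 and most points are open, and the lowest points of the members at 12 h are Egfr and Erbb2.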

How the data were processed

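The authors trimmed reads with Cutadapt, aligned them to mouse GRCm38.p6 with STAR and counted them per gene with featureCounts against a GENCODE annotation. What the authors deposited is 1 table of unnormalized read counts for protein-coding genes, which they compared with DESeq2. Strand and multi-mapping settings were not given in the sources used here.

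Groups followed the labelled time. Counts were filtered with filterByExpr, scaled by TMM and fitted over all 9 libraries in edgeR 4.0.16 (R 4.3.3) with the quasi-likelihood F-test. P-values were Benjamini-Hochberg adjusted over 11373 genes. A gene passed at an adjusted p of at most 0.05, and the 1.5-fold count followed the study's threshold. RPKM used merged exon lengths of GENCODE on GRCm38, in which the bounds of the 9 genes matched those in the table. This GENCODE release was earlier than the one the paper names for its mouse reads, and equal bounds do not show equal exon lengths. Receptor ratios (0.5 added to each count) were tested by exact permutation of the 3 time points over all assignments of libraries. The statistic was the variance between time points over that within them. The p was the share of assignments with a value at least as large.

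The receptors and regulators, the lists and the markers were chosen with earlier results of these data known. Named list genes were those that passed, up to 3 per list and comparison against 0 h with the smallest adjusted p, and some that these choices named are not reported here. The procedures were tested on simulated data. Alternatives were other scalings, filters, DESeq2 1.42.0, glmTreat, a replicate block, fits of 2 time points and leaving out each library.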

Additional observations from a re-analysis of the deposited data

Results flagged for a closer look

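In 2 genes of the lists the effect at 24 h differed from that at 12 h by the test of the difference itself, the 24 h against 12 h contrast in edgeR. Wwp1 had a log2 difference of 0.16 (24 h minus 12 h, adjusted p = 0.0400), being near its 0 h level at 12 h and higher at 24 h. The call was lost in 6 of 9 fits that left out a library. Hsp90aa1 had a log2 difference of -0.15 (adjusted p = 0.0167), being higher at 12 h than at the other times. The call was lost in 3 of 9 such fits. In the main fit, no difference of this kind passed for the receptors or for the 6 negative regulators. With no filter on low counts, Egfr, Erbb2 and Cblb passed (adjusted p of 0.0482, 0.0308 and 0.0419 by edgeR).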

How the results depend on the processing

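The falls of Egfr and Erbb2 at 12 h passed under every alternative run except glmTreat, which tests against a 1.5-fold change. The number of receptors and regulators that passed, 3 at 12 h, 2 at 24 h and 0 at 24 h against 12 h, became 0 in the first and second of these under glmTreat, 4 at 24 h and 3 at 24 h against 12 h with no filter on low counts, and 4 at 24 h when only the 2 time points compared were fitted. With a library left out, it ranged from 0 to 4 at 24 h (0 without the third 24 h library, 4 without the third 12 h library) and from 0 to 2 at 24 h against 12 h (2 without the third 12 h library). The 12 h number also moved: Cblb was lost in 5 of 9 such fits, and Errfi1, Lrig1, Cbl and Ptpn12 each passed in 1. For the receptor ratios, the difference of 12 h from 0 h ranged from -0.38 to -0.19 for Erbb2 to Erbb3, which passed without the first or the third 12 h library (adjusted p of 0.0482 and 0.0107, exact permutation), and from -0.48 to -0.36 for Egfr to Erbb3, which passed without the first (0.0429). The cause of these shifts was not tested.

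No difference past the threshold changed sign. Among those that had not passed, some log2 fold changes near 0 changed sign when a library was left out, and they ranged at 12 h against 0 h from -0.064 to 0.054 for Erbb3, -0.019 to 0.026 for Rnf41 and -0.0037 to 0.065 for Wwp1, at 24 h against 0 h from -0.014 to 0.044 for Lrig1, -0.061 to 0.0012 for Rnf41, -0.086 to 0.019 for Cbl and -0.0053 to 0.070 for Cblb, at 24 h against 12 h from -0.027 to 0.011 for Errfi1, -0.062 to 0.0044 for Rnf41, -0.025 to 0.14 for Cbl, -0.010 to 0.070 for Ptpn12, -0.0066 to 0.066 for Ptprk, -0.018 to 0.010 for Rab11a, -0.021 to 0.027 for Gab2 and -0.039 to 0.053 for Araf. Total counts in place of TMM turned Erbb3 (12 h against 0 h) to -0.0020, Errfi1 (24 h against 12 h) to 0.0028, Rab11a (24 h against 12 h) to 0.0068, Gab2 (24 h against 12 h) to 0.012, and upper quartile scaling turned Gab2 (24 h against 12 h) to 0.0035.

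Replicates of the 3 time points shared numbers. Deviations of same-numbered libraries correlated at -0.074 to 0.13, and 4 of 9 libraries correlated best with their own number. These values do not show a pairing of same-numbered libraries and, with so few libraries, cannot exclude one. With the replicate number as a block, 2956, 2039 and 609 genes passed in the 3 comparisons in place of 2896, 1982 and 572, the ratios' adjusted p was 0.167, 0.167 and 0.583, and Ptpn12 at 24 h was the 1 receptor or regulator whose call changed. Over all genes, glmTreat passed 4, 6 and 0, no filter passed 950 at 24 h against 12 h, and leaving out a library gave 214 to 879 there. Scaling by total counts turned the split there from 224 higher and 348 lower to 279 and 265. With 3 libraries a group, changes of about 0.1 on the log2 scale often missed the threshold, and such a miss does not show that a gene did not change.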
